A study of Mus musculus with 6 samples.

Results

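The fasting hormone Fgf21, its transcriptional inducer Creb3l3, the co-receptor Klb (beta-klotho) and the FGF receptors Fgfr1, Fgfr2, Fgfr3 and Fgfr4 were followed in liver. These 7 of 18193 genes on the array were taken by symbol, with every probe set that the array annotation gives to 1 of them alone, which made 17 of the 34945 probe sets with 1 gene symbol. Total RNA of livers was hybridised to 6 Affymetrix mouse arrays, 3 labelled Mig-6 d/d and 3 labelled Mig-6 f/f. All animals were males aged 8 weeks on a mixed background, kept on standard chow, and all livers were taken after a fast of 24 h, so no fed liver is part of the comparison. The gene Errfi1 encodes Mig-6, which binds and restrains receptors of the epidermal growth factor family. The labels name no Cre or promoter behind the d/d genotype. Nor do they state that the arrays of a group come from different animals, and p-values cover the spread among these samples, which may be technical.

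FGF21 is a hormone that the liver secretes in fasting, when the fatty acid receptor PPARalpha and the membrane-bound factor CREB3L3 act on its gene. It signals through FGF receptors, mainly FGFR1, only in cells that also carry beta-klotho. Hepatocytes carry beta-klotho together with FGFR4, the receptor of the intestinal hormone FGF15, which represses bile acid synthesis. FGF receptors pass their signal to the ERK pathway, as the epidermal growth factor receptor does.

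The promoters of Fgf21 and Creb3l3 are shown because these genes had the lowest unadjusted p of the members. Each run holds the 250 bases before a transcription start from RefSeq (build GRCm38.p6), 5′ to 3′ on the gene's strand. Capitals mark the letters searched for on both strands, which were TGACGTCA (the site of CREB-type factors), its core TGACG, the E-box CACGTG, TGATGCAA (a C/EBP-ATF response core), the core of nuclear receptor sites AGGTCA, that core repeated after 1 base of any kind (the element of PPARalpha), and the TATA box TATAAA. The Fgf21 run lies at chr7:45615491-45615740 on the minus strand, and the Creb3l3 runs at chr10:81098873-81099122 and chr10:81092592-81092841, also on the minus strand, for the upstream and the downstream of its annotated starts.
Fgf21: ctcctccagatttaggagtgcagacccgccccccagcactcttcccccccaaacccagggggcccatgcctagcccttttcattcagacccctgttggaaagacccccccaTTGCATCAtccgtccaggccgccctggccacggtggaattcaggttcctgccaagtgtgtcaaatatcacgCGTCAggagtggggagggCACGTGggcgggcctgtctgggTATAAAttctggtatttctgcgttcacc
Creb3l3, upstream start: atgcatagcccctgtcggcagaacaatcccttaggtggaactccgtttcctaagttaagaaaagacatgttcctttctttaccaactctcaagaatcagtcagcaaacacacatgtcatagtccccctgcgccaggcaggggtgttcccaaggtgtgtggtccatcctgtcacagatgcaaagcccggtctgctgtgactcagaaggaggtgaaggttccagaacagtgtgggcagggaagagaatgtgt
Creb3l3, downstream start: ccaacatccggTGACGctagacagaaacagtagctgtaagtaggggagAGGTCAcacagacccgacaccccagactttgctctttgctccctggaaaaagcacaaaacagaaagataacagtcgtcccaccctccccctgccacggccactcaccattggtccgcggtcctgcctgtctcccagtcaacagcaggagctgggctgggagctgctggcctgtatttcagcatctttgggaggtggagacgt

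In the Fgf21 run, TGATGCAA began 139 bases before the start on the opposite strand, TGACG 68 bases before it on the opposite strand, CACGTG 50 bases and TATAAA 28 bases before it. Of 32851 windows of this length in the table, 0.79% held TGATGCAA, 17.8% TGACG, 6.02% CACGTG and 12.4% TATAAA. The downstream Creb3l3 run held TGACG and AGGTCA, which 17.8% and 14.0% of windows held, and the upstream run held none of the letters searched. TGACGTCA, present in 1.55% of windows, and the repeat of AGGTCA, present in 0.033%, were in none of the 3 runs. A match of letters is a description and not a measured binding site.

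None of the 7 genes passed the test between the genotypes, which was limma with Benjamini-Hochberg adjustment over 13718 genes at a threshold of 0.05. Adjusted p-values of the members ran from 0.637 to 0.991, where 13 of all genes passed, 0.0948%. Differences lay below 0 in the d/d livers for 5 members and above 0 for 2, and their median was -0.12 where that of all genes was -0.015, on the log2(intensity + 16) scale on which all differences are given as d/d minus f/f with limma's standard error (3 arrays a group). At an unadjusted p under 0.05 there was 1 member, Fgf21, against 7.84% of all genes. Groups did not overlap for 1 member, Creb3l3, which lay lower in d/d, as 6.79% of all genes did. Errfi1, which carries the d/d allele, read 68.1, 61.8 and 59.6 in the d/d livers, against 5371, 5424 and 5686 in the f/f livers, a difference of -6.10 ± 0.10 on the log2 scale (limma, Benjamini-Hochberg adjusted p = 4.91e-08).

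Precision is limited by having 3 arrays a group, whose median intensities ran from 55.6 to 65.4. One array, f/f replicate 3, lay away from the rest: its 18S ribosomal RNA control read 8.36 times the highest other array, and it correlated with the rest at 0.963 on average, against 0.978 to 0.981 for each of the others. After normalization it was the highest of the 6 arrays for 27.6% of all probe sets and for 6 of the 17 probe sets of the members. Values without it are therefore given beside the members' differences. Hepatocyte markers summed to intensities of 103387.8 to 104290.5 in d/d and 101053 to 101691.5 in f/f livers over the 4 of 5 with a probe set.

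**Figure D1:**
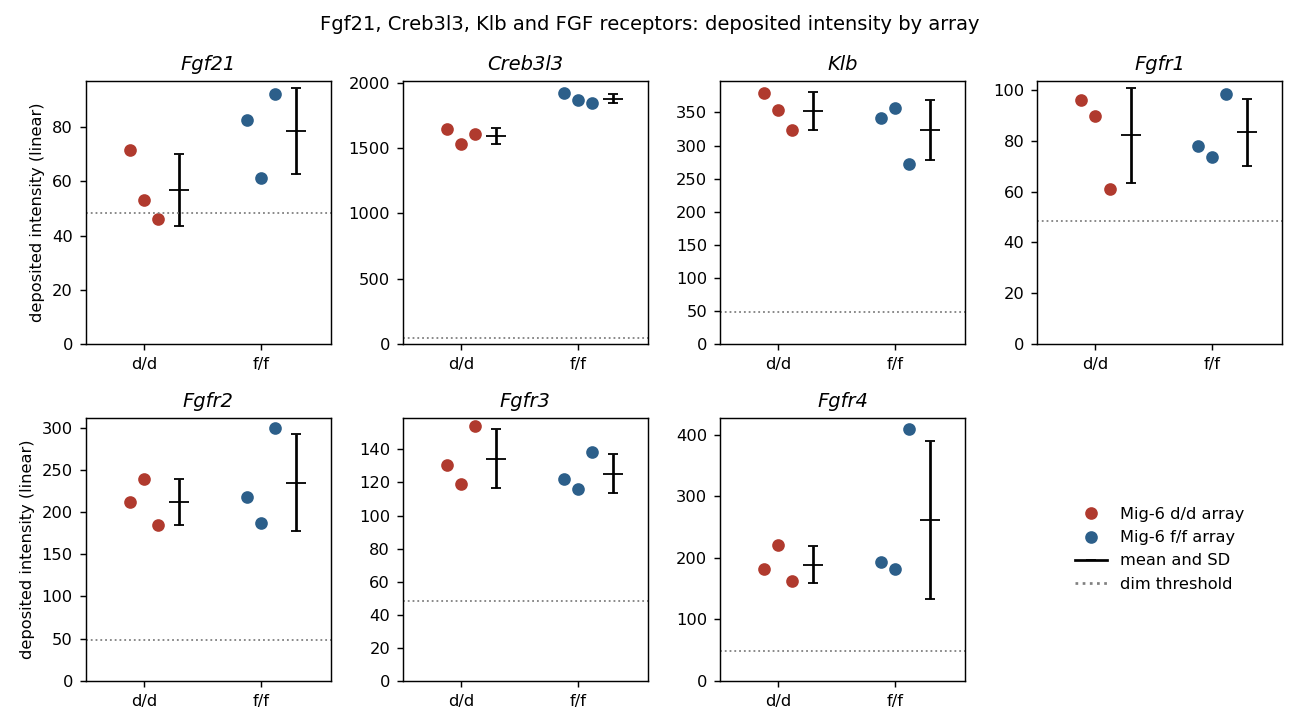
Deposited intensity (linear axis from 0) of the probe set that stands for each gene, with 3 d/d arrays in red and 3 f/f arrays in blue, the mean and SD in black and the intensity of 48.3 under which probe sets counted as dim as a dotted line. Only for Creb3l3 are the d/d arrays, at 1529 to 1643, all on one side of the f/f arrays, at 1846 to 1919, and the f/f array at 409 for Fgfr4 is replicate 3.

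Fgf21 gave a low signal in both genotypes after the fast. Its 1 probe set read 71.6, 53.1 and 46.0 in the d/d livers and 82.5, 61.0 and 92.1 in the f/f livers, close to the dim threshold at an intensity of 48.3. The d/d array of replicate 1 lay above the f/f array of replicate 2, so the groups overlapped, while the other d/d arrays lay below every f/f array. Mean intensity was 56.9 ± 13.2 in d/d and 78.5 ± 15.9 in f/f (SD, n = 3 each), and the log2 difference was -0.36 ± 0.16, or 1.28 times lower in d/d (95% interval -0.71 to -0.00046, limma, Benjamini-Hochberg adjusted p = 0.637). The added 16 understates the change of a gene this dim, and with a pseudocount of 1 the difference was -0.44. Without f/f replicate 3 it was -0.31. In an exact permutation test of the 20 assignments of arrays to groups the two-sided p was 0.2, where 3 against 3 cannot go below 0.1.

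Creb3l3, a transcription factor of the endoplasmic reticulum membrane that is cut free in fasting and acts with PPARalpha on Fgf21, was bright. It read 1643, 1529 and 1604 in the d/d livers, against 1919, 1870 and 1846 in the f/f livers. The groups did not overlap, and the gap between them, from 1643 to 1846, was wider than the range within either group. Mean intensity was 1592 ± 58.0 in d/d and 1878 ± 36.8 in f/f (SD, n = 3 each). The log2 difference was -0.21 ± 0.10, or 1.16 times lower in d/d, with a 95% interval of -0.44 to 0.016, and it did not pass (limma, Benjamini-Hochberg adjusted p = 0.675). Leaving out f/f replicate 3 gave -0.21. The two-sided exact permutation p was 0.1, the smallest that 3 against 3 allows.

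Klb, the co-receptor that FGF21 and FGF15 both need, read 380, 354 and 323 in the d/d livers and 342, 356 and 272 in the f/f livers, so that the groups overlapped. Its log2 difference was 0.13 ± 0.14 (95% interval -0.19 to 0.46, limma, Benjamini-Hochberg adjusted p = 0.854), and 0.010 without f/f replicate 3, the lowest array. The ends of this interval stood at 0.879 and 1.37 times the f/f level. The other probe set of Klb was dim, at 33.6, 42.4 and 38.2 in d/d and 40.2, 45.1 and 38.4 in f/f.

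Among the receptors, Fgfr4, the main FGF receptor of hepatocytes, depended on the probe set. The brightest of its 5, 1427846_x_at, read 182, 221 and 162 in d/d livers and 192, 181 and 409 in f/f livers. Here f/f replicate 3 alone was high and the other 5 arrays overlapped. The log2 difference was -0.36 ± 0.27 (limma, Benjamini-Hochberg adjusted p = 0.813), and -0.011 without that array. The suffix x marks a set whose probes can match other transcripts. Probe set 1418596_at, which was designed on the reference transcript, read 176, 157 and 175 in d/d and 164, 168 and 149 in f/f, with all 6 arrays within a narrow range. In the fit over all 34945 probe sets its log2 difference was 0.094 ± 0.12 (95% interval -0.18 to 0.36). The other x set of Fgfr4, 1427777_x_at, was also highest on f/f replicate 3, at 121 where the other arrays read 65.6 to 91.8, and had -0.19 ± 0.13 with that array and -0.096 without it. The remaining sets, 1427776_a_at and 1427845_at, had 0.055 ± 0.13 and -0.087 ± 0.12 and read 65.2 or less on every array.

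Fgfr1, the receptor that carries FGF21 signals in fat and brain, read 96.0, 89.5 and 60.9 in the d/d livers and 78.1, 73.7 and 98.3 in the f/f livers. The d/d arrays spanned nearly the range of all 6. Its log2 difference of -0.0099 ± 0.14 (95% interval -0.34 to 0.32, limma, Benjamini-Hochberg adjusted p = 0.991) became 0.040 without f/f replicate 3. Its other probe sets had -0.0011 ± 0.10 and -0.069 ± 0.12, and the second of these was dim.

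Fgfr2, a receptor of fibroblast growth factors from connective tissue, read 212, 239 and 185 in the d/d livers and 218, 187 and 299 in the f/f livers on its brightest probe set. The groups overlapped there, and f/f replicate 3 was the highest array. The log2 difference was -0.12 ± 0.17 (limma, Benjamini-Hochberg adjusted p = 0.895), and 0.042 without f/f replicate 3. Probe set 1433489_s_at behaved otherwise: its values of 197, 188 and 176 in d/d all lay under those of 218, 207 and 240 in f/f, as the d/d values of 6.28% of all probe sets did. It had -0.22 ± 0.11 (95% interval -0.46 to 0.018), and -0.18 without f/f replicate 3, and did not pass (limma, Benjamini-Hochberg adjusted p = 0.752). Markers of hepatic stellate cells, the connective tissue cells of the liver, summed to 2115.7 to 2564.9 in d/d and 2664.7 to 2967.9 in f/f over 7 of 7 markers, of which 4 lay lower, 3 higher and 0 passed in limma, with 1 at an unadjusted p under 0.05. The gap between these sums came from Dcn, decorin, since the other 6 summed to 649.7 to 782.6 in d/d and 684.3 to 803.6 in f/f, which overlap. Cholangiocyte markers summed to 207.2 to 243.6 in d/d and 178.3 to 255 in f/f over 4 of 5, with the defining Krt19 and Krt7 dim. The part of other cell types in the Fgfr2 values was not tested, and in whole tissue fewer cells of a type cannot be told from less RNA per cell.

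Fgfr3 read 130, 119 and 154 in the d/d livers and 122, 116 and 138 in the f/f livers, with d/d replicate 3 the highest. The log2 difference was 0.098 ± 0.12 (95% interval -0.19 to 0.38, limma, Benjamini-Hochberg adjusted p = 0.881). It was 0.12 without f/f replicate 3 and -0.0045 without d/d replicate 3. The other probe set of Fgfr3 had 0.11 ± 0.13 and read 58.4 on d/d replicate 3 and 45.7 to 48.0 on the other 5 arrays.

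**Figure D2:**
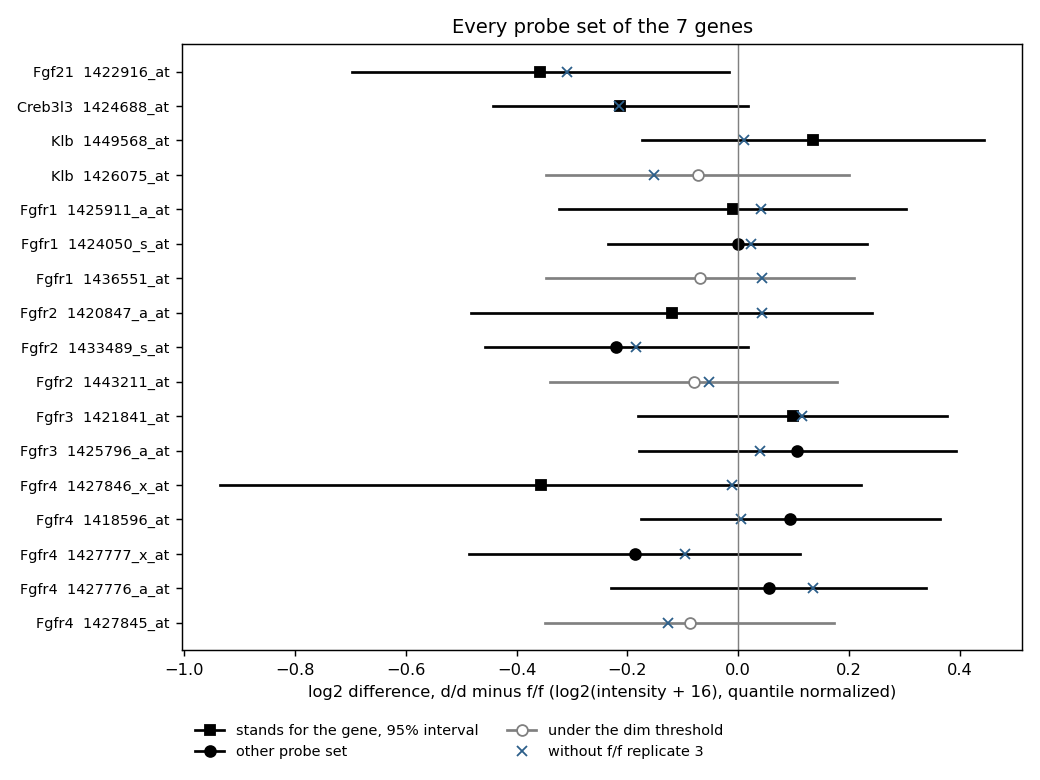
Log2 difference (d/d minus f/f, horizontal axis) of each of the 17 probe sets of the 7 genes with its 95% interval, squares for the set that stands for the gene, open grey circles for the 4 dim sets and crosses for the value without f/f replicate 3. The interval of Fgf21 alone leaves out 0, before adjustment, and the cross of Fgfr4 1427846_x_at stands at -0.011 where its square stands at -0.36.

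Over all 17 probe sets, 12 had a negative and 5 a positive difference, 0 passed limma with Benjamini-Hochberg adjustment and 1, that of Fgf21, had an unadjusted p under 0.05. In the same fit 0.0744% of all probe sets passed and 6.81% had an unadjusted p under 0.05. Groups did not overlap for 2 probe sets, those of Creb3l3 and 1433489_s_at of Fgfr2, and 13.1% of all probe sets did not overlap in either direction. Fgf21 is also made in adipose tissue and pancreas. Adipocyte markers summed to 169.7 to 194.9 in d/d and 191.1 to 240.3 in f/f over 4 of 6, with Adipoq and Lep dim. Markers of pancreatic acinar cells summed to 236.2 to 307 in d/d and 222.2 to 376.4 in f/f over 4 of 6, with Cpa1 dim.

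The genes around this axis were followed in 9 lists with 116 distinct genes, of which 92 could be tested. Of these, 3 passed, where 0.0948% of all genes did. The 3 were G6pc among targets of CREB3L3, Cyp8b1 in the bile acid arm and Igfbp1 among IGF and growth hormone genes. At an unadjusted p under 0.05 in limma there were 22, against 7.84% of all genes. The lists were chosen with earlier results of these data known, so these counts are descriptions. Among transcription factors and receptors that act on Fgf21, 9 of 14 lay higher in d/d, 5 lower, and 0 passed in limma, with 5 at an unadjusted p under 0.05 and a list median of 0.079 (0.17 with f/f replicate 1 left out, 0.13 with f/f replicate 2 left out). Mlxipl, the carbohydrate-responsive factor ChREBP, read 375, 404 and 430 in d/d, against 262, 274 and 307 in f/f, with a log2 difference of 0.49 ± 0.11 (limma, Benjamini-Hochberg adjusted p = 0.203). Ddit3, the stress factor CHOP, read 123, 99.3 and 130 in d/d, against 71.0, 74.6 and 74.9 in f/f, with 0.58 ± 0.13 (limma, Benjamini-Hochberg adjusted p = 0.231). For these genes, named for their low unadjusted p, the groups did not overlap, where 13.1% of all probe sets did not in either direction. Nr4a1, an immediate early nuclear receptor, lay on the other side, at 125, 123 and 89.4 in d/d and 141, 311 and 266 in f/f (-0.92 ± 0.25). Ppara, the receptor that drives Fgf21 in fasting, had 0.30 ± 0.14 with groups that overlapped (limma, Benjamini-Hochberg adjusted p = 0.670).

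Of 9 targets that CREB3L3 is known to act on in mouse liver, G6pc, a subunit of glucose-6-phosphatase, fell and 8 did not pass, with 4 above 0, 5 below 0 and a list median of -0.042. That median was 0.0088 without d/d replicate 1, -0.13 without f/f replicate 1, -0.12 with values as deposited, -0.10 with arrays scaled to a common median, -0.071 with array weights and 0.054 with the lowest 60% of probe sets left out. G6pc read 1400, 1266 and 1767 in d/d livers, against 3315, 3758 and 3567 in f/f livers, with a log2 difference of -1.24 ± 0.14 (limma, Benjamini-Hochberg adjusted p = 0.0251). It did not pass without d/d replicate 1 or 2, at -1.21 and -1.13 (adjusted p = 0.208 and 0.174 in limma), nor without f/f replicate 1 or 2, at -1.28 and -1.20 (adjusted p = 0.0869 and 0.10 in limma). Apoc2 and Apoa4, apolipoproteins that CREB3L3 raises, lay the other way from Creb3l3 itself. Apoc2 read 6108, 6238 and 6954 in d/d and 4450, 4878 and 4718 in f/f (0.51 ± 0.11). Apoa4 read 8348, 11670 and 11940 in d/d and 4553, 5711 and 8752 in f/f (0.79 ± 0.23). Neither passed (limma, Benjamini-Hochberg adjusted p = 0.179 and 0.355). Apoa5, an apolipoprotein of the same list that was named once its values were known, lay lower in d/d, as Creb3l3 did. It read 8813, 9186 and 8863 in d/d and 10648, 10129 and 10796 in f/f. Its difference of -0.19 ± 0.10 did not pass (limma, Benjamini-Hochberg adjusted p = 0.752).

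Among the other members of the CREB3 family, Atf6 and the proteases Mbtps1 and Mbtps2 that cut these factors, 3 of 7 lay higher, 4 lower and 0 passed in limma, with 0 at an unadjusted p under 0.05 and a list median of -0.0055, which lay between -0.019 and 0.096 with 1 array left out and turned positive without any array but d/d replicate 2. Creb3 read 292, 266 and 276 in d/d, against 359, 317 and 320 in f/f (-0.24 ± 0.11), and Atf6, a sensor of unfolded proteins, read 187, 187 and 168 in d/d, against 163, 163 and 141 in f/f (0.22 ± 0.12). Creb3l4 had 0.23 ± 0.15.

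PPARalpha targets of the fasted liver lay lower for 9 of the 14 tested and higher for 5, with a list median of -0.15, and 0 passed in limma where 4 had an unadjusted p under 0.05. Plin2, a lipid droplet coat protein, read 3379, 2794 and 3098 in d/d and 5591, 4955 and 3950 in f/f (-0.59 ± 0.16). Cpt1a, which admits fatty acids to mitochondria, read 2173, 2201 and 1927 in d/d and 2892, 2776 and 2539 in f/f (-0.34 ± 0.11), and Cpt2, its partner on the inner membrane, had -0.44 ± 0.13. For these 3 genes, named for their low unadjusted p, no d/d array reached the lowest f/f array, as for 6.79% of all genes. Adjusted p of the 3 ran from 0.302 to 0.434 (limma, adjusted by Benjamini-Hochberg). The list median was -0.021 without d/d replicate 3 and also without f/f replicate 1.

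Of the FGF ligands other than Fgf21, all 21 had a probe set, 10 were dim and 11 were tested. Of these 6 lay higher and 5 lower, 0 passed in limma, with 2 at an unadjusted p under 0.05, and the list median was 0.0006 (-0.098 with f/f replicate 2 left out, 0.12 with f/f replicate 3 left out). The brightest, Fgf1, which binds all FGF receptors and was chosen once its values were known, read 608, 546 and 524 in d/d and 499.7, 402 and 688 in f/f (0.12 ± 0.18), with groups that overlapped. Fgf15, the intestinal hormone that acts on liver FGFR4 and is not made by hepatocytes, read 75.8, 76.3 and 55.5 in d/d and 52.7, 65.4 and 110 in f/f, with a log2 difference of -0.059 ± 0.18 in the fit over all probe sets. Fgf5 read 63.3, 75.5 and 54.7 in d/d, against 33.3, 46.3 and 42.1 in f/f (0.52 ± 0.13, limma, Benjamini-Hochberg adjusted p = 0.272). Fgf20 read 62.0, 60.2 and 48.5 in d/d, against 47.8, 39.2 and 45.2 in f/f (0.29 ± 0.12), and Fgf17 had -0.18 ± 0.13. The values of Fgf5 and Fgf20 lie near the dim threshold. Kl, the co-receptor of the kidney hormone FGF23, was dim, at 37.8, 43.7 and 41.0 in d/d and 39.0, 36.2 and 44.2 in f/f.

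Receptor partners and adaptors gave no member past the threshold: 5 of 10 tested lay higher and 5 lower, with 0 at an unadjusted p under 0.05 in limma and a list median of -0.025 (-0.12 with f/f replicate 1 left out, 0.077 with f/f replicate 3 left out). Sos1, the exchange factor that couples receptors to Ras, read 280, 299 and 305 in d/d, against 243, 272 and 208 in f/f (0.29 ± 0.13). The adaptor Grb2, which brings Sos1 to the receptor, had -0.34 ± 0.19 with groups that overlapped. Grb2 read 397 on f/f replicate 3 and 203 to 265 on the other arrays. Flrt1, a membrane partner of FGF receptors, had 0.13 ± 0.13.

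Response and feedback genes of the ERK pathway, which both FGF and epidermal growth factor receptors drive, lay higher for 8 of 12 tested and lower for 4, with a list median of 0.053, and 0 passed in limma where 2 had an unadjusted p under 0.05. The list median turned negative with d/d replicate 2 left out (-0.0015) or d/d replicate 3 left out (-0.0080). Egr1, an immediate early transcription factor, read 347, 949 and 2199 in d/d livers and 221, 354 and 142 in f/f livers. Its d/d arrays spread widely and the lowest lay under the highest f/f array, so that a log2 difference of 1.98 ± 0.60 did not pass (limma, Benjamini-Hochberg adjusted p = 0.390). Ccnd1, cyclin D1, read 122, 114 and 106 in d/d, against 70.1, 90.6 and 81.6 in f/f (0.45 ± 0.12, limma, Benjamini-Hochberg adjusted p = 0.302). Its groups did not overlap, where 13.1% of all probe sets did not in either direction. Dusp6, a phosphatase that ends ERK signals and is a usual readout of FGF receptor activity, read 198, 195 and 297 in d/d and 219, 219 and 127 in f/f (0.30 ± 0.25). Its groups overlapped, and the lowest array was f/f replicate 3. On the normalized log2 scale the d/d mean was 7.91, where f/f replicates 1 and 2 stood at 7.90 each and replicate 3 at 7.05.

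The bile acid arm held genes of bile acid synthesis, its regulation and bile acid transport, and whether the list follows FGFR4 and beta-klotho was not tested. In it Cyp8b1 fell and 8 of 9 did not pass in limma. Of the 9, 7 lay below 0 and 2 above 0, with 5 at an unadjusted p under 0.05 and a list median of -0.29. Cyp8b1, the enzyme that directs synthesis to cholic acid, read 2822, 2468 and 2499 in d/d, against 5453, 5635 and 5104 in f/f, with -1.02 ± 0.11 (limma, Benjamini-Hochberg adjusted p = 0.0238). It did not pass without any one of the d/d arrays, at -1.08, -0.97 and -0.99 (adjusted p = 0.113, 0.200 and 0.146 in limma), or without f/f replicate 1 or 2, at -0.99 in each (adjusted p = 0.0877 and 0.0850 in limma). Cyp7a1, the rate-limiting enzyme that FGF15 represses, read 418, 725 and 582 in d/d, against 1053, 1512 and 978 in f/f, and did not pass (-1.01 ± 0.22, limma, Benjamini-Hochberg adjusted p = 0.200). Cyp7b1, of the alternative pathway, had -0.85 ± 0.21. Beside these stand 0.13 ± 0.14 for Klb and, for Fgfr4, -0.36 ± 0.27 on the set that stands for the gene, -0.19 ± 0.13 on 1427777_x_at and 0.094 ± 0.12 on the reference set. Igfbp1, which FGF21 raises in mouse liver, fell to 1019, 882 and 957 in d/d livers, against 4816, 4893 and 3245 in f/f livers (-2.12 ± 0.17, limma, Benjamini-Hochberg adjusted p = 0.00455), and it passed without any 1 array. The other 5 IGF and growth hormone genes did not pass, with Ghr, the growth hormone receptor, at 0.13 ± 0.11, Stat5a at -0.068 ± 0.11 and a list median of -0.017, which lay between -0.051 and 0.013 with 1 array left out.

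**Figure D3:**
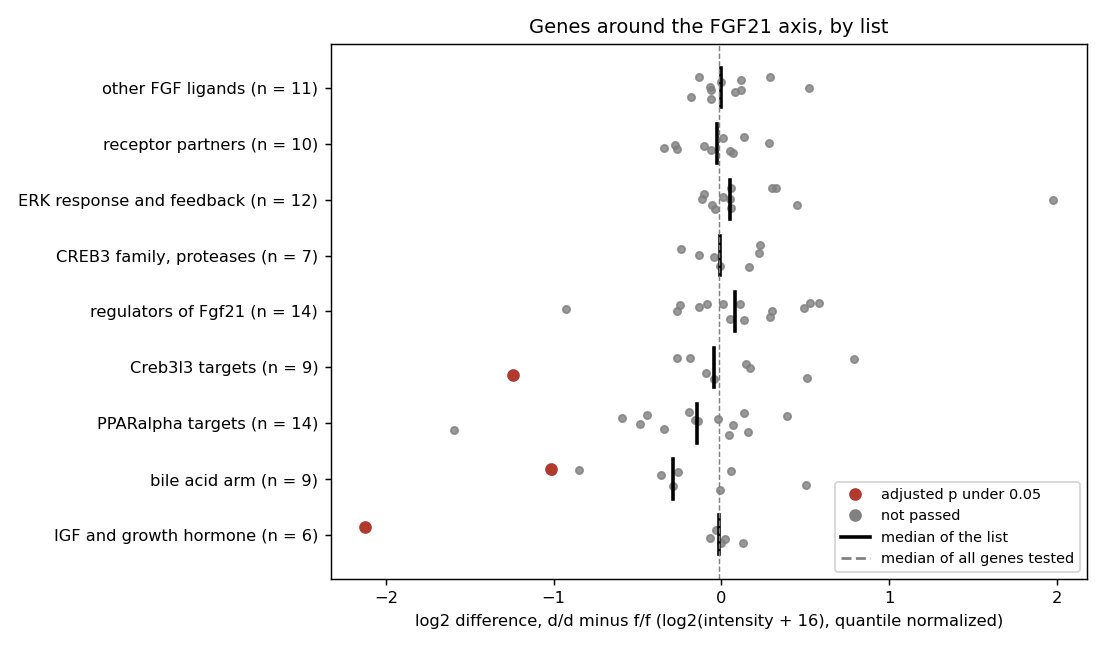
Log2 difference (d/d minus f/f, horizontal axis) of each gene tested in the 9 lists around the axis, 1 dot a gene, with genes past an adjusted p of 0.05 in red, the median of each list as a black bar and the median of all genes as a dashed line. The red dots are G6pc, Cyp8b1 and Igfbp1, and list medians lie between -0.29 and 0.079.

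The genes most like Fgf21 across the 6 arrays, by Pearson's r of normalized log2 values over all genes tested, were Ccdc8 (0.996), Yif1a (0.988), E430018J23Rik (0.988), Trim12a (0.983) and Slc25a42 (0.975). For Creb3l3 they were Dut (0.993), Tnfrsf25 (0.988), Cenpu (0.987), Mrps18a (0.985) and Bin3 (0.984). The points share array and genotype, and 6 arrays against 13718 genes give high values easily, so these are descriptions. All 10 lay lower in d/d, by -0.089 to -0.48. They were picked for likeness to Fgf21 and Creb3l3 on these same arrays, so their direction follows from that choice and adds no support. None passed in limma (adjusted p from 0.265 to 0.866 with Benjamini-Hochberg adjustment). The same choice bears on the 3 at an unadjusted p under 0.05.

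**Figure D4:**
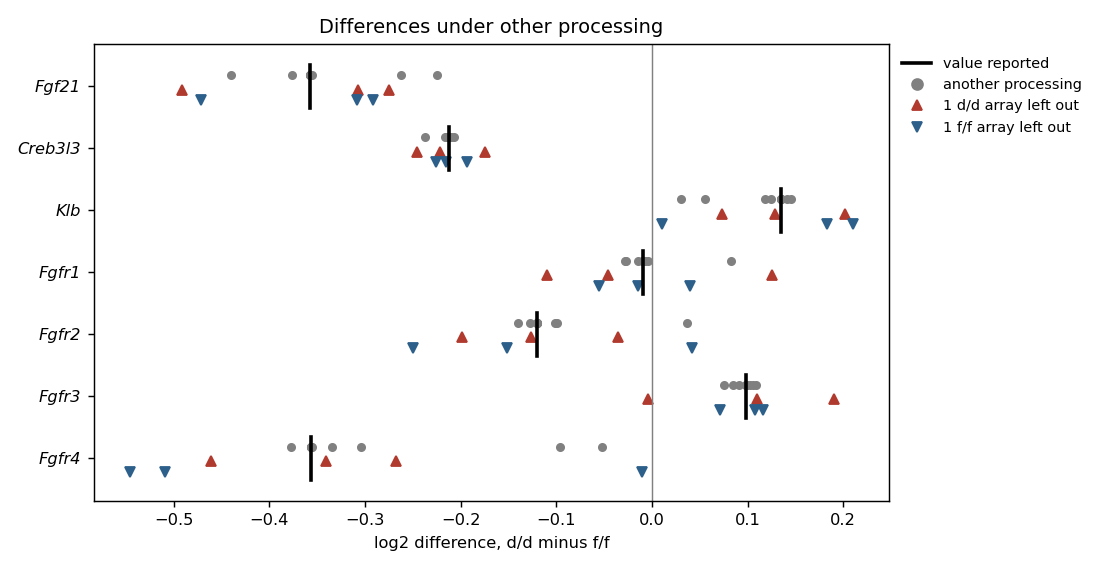
Log2 difference (d/d minus f/f, horizontal axis) of the 7 genes as reported (black bar), under other scaling, filters, probe set rules, variance models and pseudocounts (grey dots), and without 1 d/d array (red triangles) or 1 f/f array (blue triangles). Fgf21 stayed between -0.49 and -0.22 and Creb3l3 between -0.25 and -0.17, while Fgfr1, Fgfr2 and Fgfr3 crossed 0.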

How the data were processed

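Biotin-labelled total RNA was hybridised to Affymetrix arrays, as the labels' protocols state. The authors deposited linear intensities for 45101 probe sets on 6 arrays. Their probe summary, background correction, scaling and genome build are not given in the sources used here.

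Probe sets were named through the platform annotation: 34945 had 1 symbol, 932 several, 9160 none, and 64 were controls. For 34741 the Entrez number was found in the reference table, and 0 symbols needed an update. Values were quantile normalized as log2(intensity + 16). Each gene was represented by its brightest probe set, and the lowest 40% of probe sets were left out as dim, which left 13718 genes. All 17 probe sets of the members, 13 of them above that threshold, were also read from a fit over all 34945. The genotype difference was tested in limma 3.58.1 (lmFit, eBayes; R 4.3.3) with no covariate and Benjamini-Hochberg adjustment, and the test was run on simulated data. Promoters matched by symbol for 6 of the 7 genes. Tables and figures used pandas 2.3.3 and matplotlib 3.10.9 in Python 3.11.15.

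Members and lists were chosen with earlier results of these data known. Named genes are the members, Errfi1, list members that passed, up to 3 per list with the lowest unadjusted p, 9 key genes and, for Fgf21 and Creb3l3, the 5 genes with the highest correlation. Of the key genes, 1 is not reported here. Alternatives covered scaling, the dim filter, the probe set rule, pseudocounts, array weights, the variance model, a replicate block and each array left out.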

Additional observations from a re-analysis of the deposited data

How the results depend on the processing

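None of the 7 members, and 0 of their 17 probe sets, passed under any alternative run, with adjusted p (limma, adjusted by Benjamini-Hochberg) no lower than 0.343 for a gene, and with at most 2 members at an unadjusted p under 0.05. Fgf21, Creb3l3 and Fgfr4 stayed below 0 and Klb above 0 in all of them. Fgf21 was dim with the lowest 60% left out and has no value there. The signs of Fgfr4 and Klb are those of the gene values and not of every probe set. Fgfr4 had 0.094 on 1418596_at and 0.055 on 1427776_a_at, with its other sets below 0, and the dim set of Klb had -0.074. Signs turned for Fgfr1 with array weights (0.082), without d/d replicate 3 (0.13) and without f/f replicate 3 (0.040), for Fgfr2 with array weights (0.037) and without f/f replicate 3 (0.042), and for Fgfr3 without d/d replicate 3 (-0.0045); the cause was not tested. Leaving out 1 array moved Fgf21 between -0.49 and -0.28, Creb3l3 between -0.25 and -0.17, Klb between 0.010 and 0.21, Fgfr1 between -0.11 and 0.13, Fgfr2 between -0.25 and 0.042, Fgfr3 between -0.0045 and 0.19 and Fgfr4 between -0.55 and -0.011. The count of all genes past the threshold, 13, was 20 with probe sets averaged, 21 with a trended and robust variance, 215 with array weights (0.178 for f/f replicate 3), and over the fits with 1 array left out it ran from 4, lacking d/d replicate 1, to 85, lacking f/f replicate 3. With the replicate number as a block it was 6, and Cyp8b1 and G6pc no longer passed. Deviations of same-numbered arrays correlated at -0.0033, -0.14 and -0.47, and those of differently numbered arrays at -0.47 to 0.43. With 3 arrays a group these values cannot tell whether the numbers pair the samples. The values of Fgf21, Kl and several FGF ligands near the dim threshold limit what can be read from them.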

Other observations

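The following genes were picked after their values were seen. Cyp4a14, a PPARalpha target that hydroxylates fatty acids, had the lowest difference in its list, at -1.60 ± 0.57, and read 3187, 630 and 951 in d/d livers and 5987, 2372 and 4027 in f/f livers. Its groups overlapped and it did not pass (limma, Benjamini-Hochberg adjusted p = 0.518). Nfe2l2, the antioxidant factor NRF2, read 379, 392 and 459 in d/d livers, against 373, 291 and 202 in f/f livers, 0.53 ± 0.21 (limma, Benjamini-Hochberg adjusted p = 0.587). Nr3c1, the glucocorticoid receptor, read 468, 531 and 512 in d/d livers, against 420, 425 and 382 in f/f livers, 0.29 ± 0.10 (limma, Benjamini-Hochberg adjusted p = 0.519). With array weights, Apoa4, Apoc2, Cyp7a1, Mlxipl and Plin2 passed in limma beside Cyp8b1, G6pc and Igfbp1, which made 8 of the genes in the lists, and Apoa4 and Plin2 also passed without f/f replicate 3.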
